A study of Caenorhabditis elegans with 4 samples.

Results

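The chromatin remodelling subunit NURF-1 was mapped in larvae of the nematode Caenorhabditis elegans, and the 1846 NURF-1 peaks on chromosome V are described here. They are all entries for that chromosome in the peak list deposited for the whole series, and make up 15.6% of its 11796 peaks. The 2 ChIP libraries were made with an affinity-purified rabbit polyclonal antibody against NURF-1, and 2 further libraries of input DNA were sequenced beside them. All came from N2 wild-type worms, a mixed population of males and hermaphrodites, collected at the L3 larval stage at 20 °C. Ground frozen worms were crosslinked with EGS for 20 minutes and then with EGS and formaldehyde for 10 minutes. Whole worms were used, so a site bound in fewer cells and a site bound less in each cell cannot be told apart. Whether the ChIP replicates are separate worm cultures is not stated in the labels, and their spread may be technical.

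NURF-1 corresponds to mammalian BPTF and is the largest component of NURF, a complex that remodels chromatin. It slides nucleosomes with an ISWI-class ATPase, and BPTF-family proteins carry PHD fingers and a bromodomain, which read methylated and acetylated histone tails. In worms, NURF-1 is known for roles in development and in the germ line. Chromosome V is the longest worm chromosome. Worm autosomes have arms with frequent recombination, many repeats and fast-evolving gene families, and a centre with little recombination and many conserved genes. On V these families include a large number of chemoreceptor genes.

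The ChIP libraries gave lists of unequal length, 4856 peaks in replicate 1 and 11771 in replicate 2. On V they held 769 and 1830 peaks, a mean of 1300 ± 750 (SD, n = 2). An entry gives the extent of a peak and its score, which is the authors' own value on a scale that is not stated. Scores are therefore ranked or compared only within one list. The lists hold no read counts, so the depth behind a peak is unknown. Coordinates are on WormBase WS220. Chromosome V is taken as 20924149 bp long, the last base of its last peak in all 3 lists. Genes and sequence features at the peaks were not analysed here.

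NURF-1 peaks were more densely packed in the centre of chromosome V than in its arms in all 3 lists, while the order of the arms differed between the replicates. With boundaries at 5.897 and 16.550 Mb, the right arm held 288 whole-series peaks, the left arm 478 and the centre 1080. These are 65.8 peaks per Mb in the right arm, 81.1 per Mb in the left arm and 101 per Mb in the centre. Together the arms had 74.6 peaks per Mb, 0.74 times the density of the centre. The arms make up 49.1% of the length of V and held 41.5% of its peaks.

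Both replicate lists had fewer peaks per Mb in the arms than in the centre. In replicate 1 the arms held 32.1 peaks per Mb and the centre 41.2. In replicate 2 the arms held 72.8 peaks per Mb and the centre 102. The ratio of arms to centre was thus 0.78 in replicate 1 and 0.72 in replicate 2, with a mean of 0.748 ± 0.0443 (SD, n = 2).

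The order of the arms was not the same in both replicates. Replicate 2 had 62.2 peaks per Mb in the right arm and 80.7 in the left arm, a ratio of 0.77. Replicate 1 had 33.1 peaks per Mb in the right arm and 31.4 in the left arm, a ratio of 1.06. The whole-series ratio of 0.81 lies between these values, so which arm was denser depended on the replicate.

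Peak bases showed the same order of zones in the whole-series list. Peaks covered 2.78% of the right arm, 3.51% of the left arm and 4.75% of the centre. Right-arm peaks of that list were also the narrowest of the 3 zones, with a median width of 274 bp, against 320.5 bp in the left arm and 354.5 bp in the centre. Their median score was 13.20, against 17.46 in the left arm and 18.26 in the centre. The score quartiles overlapped widely, from 5.99 to 51.3 in the right arm, 7.56 to 57.6 in the left arm and 6.76 to 65.4 in the centre. In replicate 1 the zones lay close together, with median widths of 254 bp in the right arm, 262 bp in the left arm and 257 bp in the centre. Its median scores were 9.05 in the right arm and 10.08 in both other zones. Replicate 2 had median widths of 283, 324.5 and 355 bp, in the same order of zones. For arms together, the median score differed from that of the centre by -2.37 in the whole-series list. It was -0.06 with 3 zones of equal length and -5.35 among peaks in both replicates, so its size depended on these choices. Within the replicate lists this difference was -0.685 in replicate 1 and -2.68 in replicate 2.

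**Figure D1:**
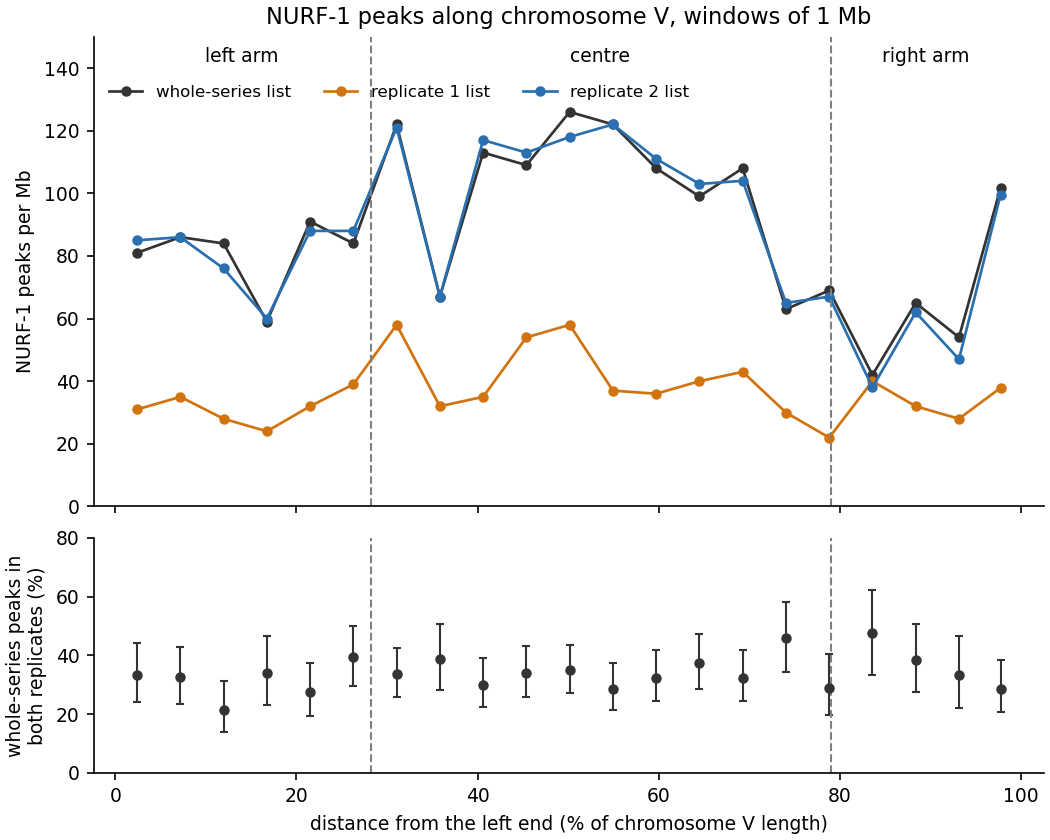
The upper panel plots NURF-1 peaks per Mb in 21 consecutive windows of 1 Mb against the distance from the left end of chromosome V (in percent of its length) for the 3 lists; dashed lines mark the boundaries between arms and centre. The lower panel gives the share of whole-series peaks that overlap both replicate lists, with 95% Wilson intervals; the densest whole-series windows lie in the centre, and the window with the fewest whole-series peaks, 42 per Mb, lies in the right arm, where replicate 1 had 40 per Mb, above its median of 35.

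Along the chromosome, peak density in the whole-series and replicate 2 lists formed a plateau with a dip inside it. Replicate 1 showed this less clearly. Its windows between 6 and 15 Mb held 32 to 58 peaks, and those wholly within an arm up to 40. Whole-series density in the 21 windows of 1 Mb ran from 42 to 126 peaks per Mb, with a median of 86. The highest value was that of 10 to 11 Mb in the centre, and the lowest that of 17 to 18 Mb in the right arm. The low count there did not hold in replicate 1, which had 40 peaks in that window, above its median of 35, and its lowest count, 22, at 16 to 17 Mb. Replicate 2 had 38 peaks at 17 to 18 Mb, its lowest count. Whole-series peaks at 17 to 18 Mb also covered 31.7 kb, more than the 23.1 kb at 16 to 17 Mb, the 23.1 kb at 18 to 19 Mb and the 19.01 kb at 19 to 20 Mb. Between 6 and 15 Mb, 8 of 9 windows had more than 90 peaks per Mb, against 2 of the other 12. This range and the cut of 90 were not set by the zone boundaries or by a rule. They describe the same window values, so the contrast is not a test. The window at 15 to 16 Mb, also wholly in the centre, held only 63 peaks, with 65 in replicate 2 and 30 in replicate 1. The exception inside the range, at 7 to 8 Mb, held 67 peaks. That window held 67 peaks in the replicate 2 list too and 32 in replicate 1, below the windows on either side in each list. Its whole-series peaks covered 41.2 kb, the least of the 9 windows. This was still more than in any window wholly within an arm, where the most was 39.1 kb at 1 to 2 Mb. Of the 41.2 kb, however, 8194 bp were a single peak, the widest on V, and the comparison with the arms rests on that peak.

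The right arm ended in a denser stretch. From 20 Mb to the chromosome end the density was 102 peaks per Mb, against 54 per Mb in the window before it. Replicate 2 had 99.6 peaks per Mb in that last stretch and 47 in the window before. Replicate 1 had 37.9 per Mb in the last stretch and 28 before it. The single window of 100 kb with the most peaks on V also lay there, at 20400001 to 20500000, with 24 whole-series peaks. The next were 10000001 to 10100000 with 23 peaks and 6200001 to 6300000 with 22, both in the centre. Replicate 2 held 24, 22 and 21 peaks in these 3 windows, and replicate 1 held 7, 5 and 10.

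Sparse stretches were also found mainly outside the centre. Of the 210 windows of 100 kb on V, 22 held 2 whole-series peaks or fewer. They made up 12 of the 45 windows of the right arm, 5 of the 59 of the left arm and 5 of the 106 of the centre. The 7 windows with no peak at all lay in the arms. The longest gap between neighbouring peaks spanned 18237127 to 18430815 in the right arm, a length of 194 kb. The others were 176 kb long, from 2877824 to 3053944 in the left arm, and 148 kb long, from 16967030 to 17115462 in the right arm. Replicate 1 had no peak in either right-arm gap. In replicate 2, 1 peak reached 2 or 3 bases into each of them from its edge. The left-arm gap held 2 weak peaks of replicate 1, with scores of 2.72 and 3.75.

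Chromosome V had fewer NURF-1 peaks per Mb than 4 of the other 5 nuclear chromosomes. Its whole-series density was 88.2 peaks per Mb, against 127 ± 30.8 on the others (SD, n = 5 chromosomes), a ratio of 0.69. X, at 87.0 per Mb, was next to V, and the others lay between 116 on II and 161 on III. V holds 20.9% of the nuclear length and 15.7% of the nuclear peaks. The replicates gave like ratios, 0.70 in replicate 1 and 0.69 in replicate 2. In replicate 2, V was the lowest of the 6 chromosomes, with 87.5 peaks per Mb on V and 88.6 on X.

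The ratio of arms to centre was lower on V than on any other chromosome in the whole-series list. Zones of the other chromosomes were set at the same fractions of their length, 28.2% and 79.1%, not at boundaries of their own. The ratio was 0.74 on V, against 0.926 ± 0.108 on the others (SD, n = 5 chromosomes), which ran from 0.757 on II to 1.04 on X. Replicate 2 also had V lowest, at 0.717 on V and 0.744 on II. In replicate 1, II was lower, at 0.780 on V and 0.745 on II. With 6 chromosomes no such difference can pass a test at 0.05. Exact two-sided permutation over the 6 chromosomes gave p = 0.167 for the ratio of arms to centre, the smallest it can give, and p = 0.667 for density. Over the 6 measures tested in this way, every Benjamini-Hochberg adjusted p was 0.833 (exact permutation).

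**Figure D2:**
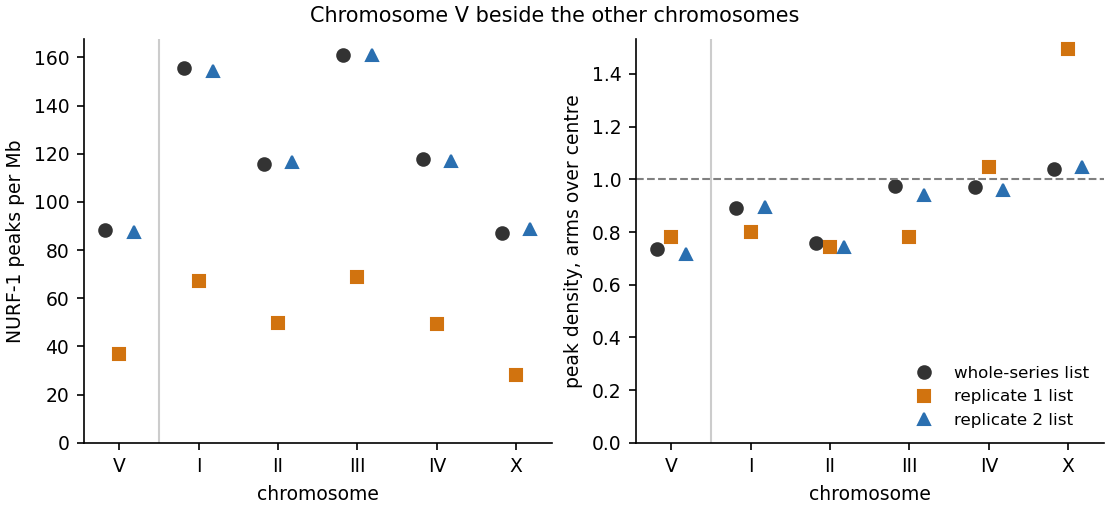
The left panel plots NURF-1 peaks per Mb, and the right panel the ratio of peak density in the arms to that in the centre, for chromosome V and the other nuclear chromosomes (x axis), with 1 point per peak list. V and X have the lowest whole-series densities, 88.2 and 87.0 per Mb, and the ratio on V, 0.74, lies next to that of 0.757 on II.

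V and X had the largest shares of isolated peaks. In the whole-series list, 232 V peaks, or 12.6% (95% Wilson interval 11.1 to 14.2), had no other peak within 10 kb. The share was 12.3% (10.8 to 14.1) on X, not separable from V by its interval, and between 4.55 and 7.87% on the other 4 chromosomes. In each replicate list X came first and V next, with 30.9% on V and 42.4% on X in replicate 1, and 12.68% on V and 12.74% on X in replicate 2. The replicate 1 interval of V, 27.8 to 34.3, overlapped those of IV, at 27.5% (24.6 to 30.6), and II, at 26.9% (23.9 to 30.2). At the other extreme, 724 whole-series V peaks (39.2%) had a neighbour within 1 kb, against 37.4 to 51.0% on the other chromosomes. In replicate 1 this share was 29.1% on V, where the others ran from 22.7% on X to 30.9% on IV. Within V in the whole-series list, isolated peaks made up 15.3% of the right arm, 13.8% of the left arm and 11.3% of the centre, and the intervals of these shares overlap. All intervals cover counting error only.

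Replicate 2 contained nearly every V peak of the whole-series list, and replicate 1 a much smaller share. Of the 1846 V peaks, 1737 overlapped a replicate 2 peak by at least 1 bp (94.1%, 92.9 to 95.1), where 94.5% of all nuclear peaks did. In replicate 1, 651 were found (35.3%, 33.1 to 37.5), against a background of 36.0% of all nuclear peaks. The replicate 1 list holds only 769 V peaks, fewer than the 1846, which limits this share. Both lists held 614 of the V peaks (33.3%, 31.1 to 35.4), where the share of all nuclear peaks was 34.3%. Replicate 2 alone held 1123 (60.8%), replicate 1 alone held 37 (2.00%) and neither held 72 (3.90%). For all nuclear peaks, the same shares were 60.2%, 1.62% and 3.84%. The V shares are thus close to those of the whole list. In the other direction, the whole-series list overlapped 703 of 769 V peaks of replicate 1 (91.4%, 89.2 to 93.2), against 94.0% of all nuclear replicate 1 peaks, and 1742 of 1830 of replicate 2 (95.2%, 94.1 to 96.1), against 94.7%. The mean of the other chromosomes was 35.7 ± 4.03% for replicate 1, 94.7 ± 0.559% for replicate 2 and 34.1 ± 4.25% for both (SD, n = 5 chromosomes). V lay within 1 SD of it in each case. For replicate 1 and for both, only X was lower than V, at 28.7% and 26.7%. The other autosomes were all higher, with the lowest, IV, at 35.9% and 34.5%. A test over 6 chromosomes cannot pass 0.05 and cannot show that V is like the others (exact permutation p = 0.833 for replicate 1, 0.5 for replicate 2 and 0.833 for both). The shares also rest on the overlap asked for. With at least 50% of the V peak covered, 317 were found in replicate 1 (17.2%) and 15.01% in both, where 14.9% of all nuclear peaks were. Between the replicate lists, 662 of 769 replicate 1 V peaks overlapped a replicate 2 peak (86.1%, 83.5 to 88.4). On the other chromosomes this share ran from 86.5% on X to 92.9% on III.

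Peaks in both replicates were the strong and wide ones. The 614 had a median whole-series score of 88.2 and a median width of 658.5 bp. The 1123 in replicate 2 alone had a median score of 9.84 and a width of 258 bp, and the 37 in replicate 1 alone a score of 5.24 and a width of 226 bp. The 72 in neither list had a median score of 3.75 and a width of 159.5 bp, and none scored above 10.06. Wider peaks scored higher (Spearman's rho 0.80 over the 1846 V peaks, which share their libraries). Whole-series scores had a rho of 0.97 with those of replicate 2 over 1737 overlapping peaks. With those of replicate 1 the rho was 0.69 over 651 peaks. The 2 sets of peaks differ in number and in range of score, so these values are not a like comparison.

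**Figure D3:**
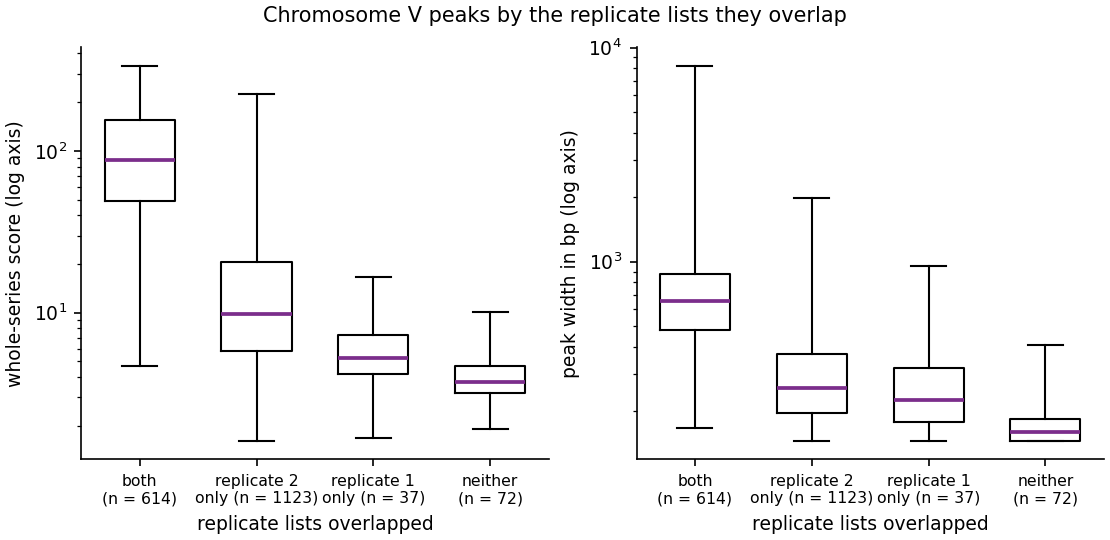
Box plots of the whole-series score (left) and of peak width in bp (right), both on log axes, for the 1846 chromosome V peaks by the replicate lists they overlap. Boxes span the quartiles, the line is the median and whiskers reach the lowest and highest peak; peaks in both lists have the highest median score, 88.2, and the largest median width, 658.5 bp.

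The share found in replicate 1 climbed steeply with score on V. All nuclear whole-series peaks were ranked by score and divided into 5 equal groups. Of the V peaks in these groups, from the lowest-scored up, 6.56%, 7.45%, 17.1%, 56.3% and 93.2% overlapped replicate 1. On the other chromosomes pooled the shares were 4.62%, 6.21%, 19.0%, 57.2% and 92.7%, and in each group the 95% intervals of V and the others overlap. Replicate 2 held 76.0% of the lowest-scored V group and 95.2% of the next. It held all 391 and all 338 V peaks of the top groups.

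**Figure D4:**
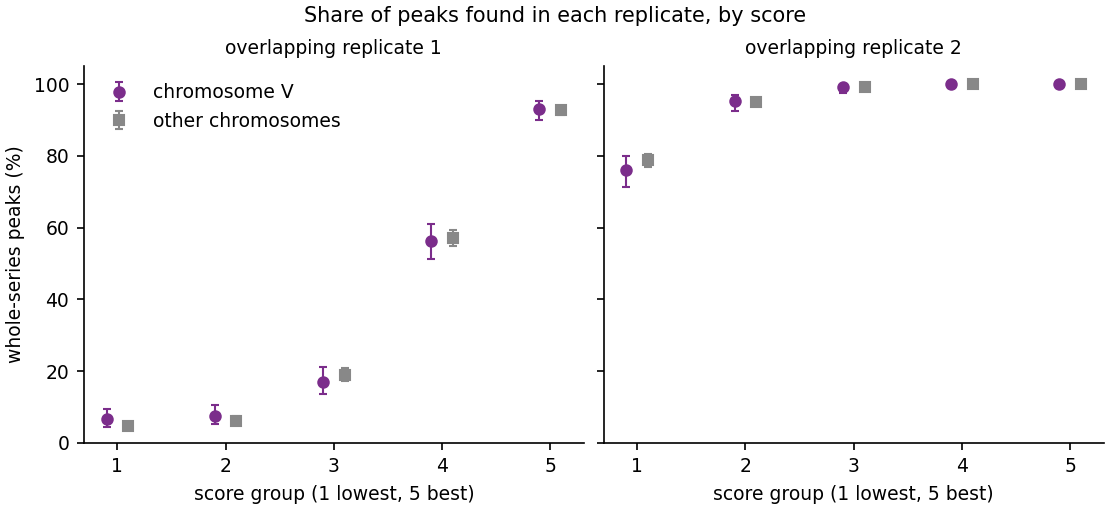
Percent of whole-series peaks that overlap a replicate 1 peak (left) or a replicate 2 peak (right) in 5 score groups of equal size, for chromosome V and for the other nuclear chromosomes together, with 95% Wilson intervals. On V the share found in replicate 1 is 6.56% in the lowest group and 93.2% in the best, and the intervals of V and the others overlap in every group.

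Shared peaks had the same order of zones as the whole list. Peaks in both replicates numbered 22.6 per Mb in the right arm, 24.9 per Mb in the left arm and 34.5 per Mb in the centre. Their median scores were 73.9 in the right arm, 93.7 in the left arm and 90.2 in the centre. The right arm had the lowest share of peaks found in replicate 2, 88.9% (84.7 to 92.0), against 94.98% (92.6 to 96.6) in the left arm and 95.1% (93.6 to 96.2) in the centre. For replicate 1 the right arm was at 38.2% (32.8 to 43.9), the left arm at 32.4% (28.4 to 36.7) and the centre at 35.7% (32.9 to 38.6), with overlapping intervals. Peaks in neither list made up 7.29% (4.82 to 10.9) of the right arm, 3.35% (2.07 to 5.37) of the left arm and 3.24% (2.34 to 4.47) of the centre.

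The 10 best-scored V peaks lay in all 3 zones, 3 in the right arm, 1 in the left arm and 6 in the centre. Each overlapped both replicate lists, and they were 875 to 1364 bp wide. The best of them ranked 19 among all nuclear peaks. V peaks made up 15.7% of all nuclear peaks and 13 of the best 100. Of the best-scored 1% of nuclear peaks, 14 of 118 were on V (11.9%, 7.20 to 18.9), and of the best 10%, 163 of 1178 (13.8%, 12.0 to 15.9). Both intervals include the share of V among all nuclear peaks.

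The first-ranked V peak spanned 7775454 to 7776815 in the centre and scored 334.25 in the whole-series list. Its counterpart ranked 7 on V in replicate 1, with a score of 201.22, and 5 in replicate 2, with 332.86. It lies in the sparse window at 7 to 8 Mb, 15199 bp from the peak on its left and 26708 bp from that on its right. Next came 10965397 to 10966271, also in the centre, with a score of 331.35. This was the best-scored V site of replicate 2 (348.06), and it ranked 6 in replicate 1 (202.77). The site at 18533048 to 18534283 in the right arm scored 330.59, and it was the best of V in replicate 1 (306.55) and ranked 4 in replicate 2 (339.02). A small neighbouring peak lay 92 bp from its left edge.

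Within each replicate list the 10 sites had their own order. The lowest replicate 1 score among them, 37.53, was that of the right-arm peak at 17857575 to 17858565, which scored 328.28 in the whole-series list and 342.56 in replicate 2. The right-arm peak at 20492998 to 20494361 had the same whole-series score, 328.28, with 111.80 in replicate 1 and 341.51 in replicate 2. The centre peak at 15001740 to 15003057 had 321.50 in the whole-series list, 300.89 in replicate 1 and 309.29 in replicate 2. The peak at 17857575 to 17858565 ranked 113 on V in replicate 1 and 2 in replicate 2. Levels and ranks in lists of unequal length cannot be used to test for a change between replicates. Replicate 1 scores of the 10 ran from 37.53 to 306.55, with a median of 203, and replicate 2 scores from 295.3 to 348.06, with a median of 332.

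The remaining peaks of the first 10 were the centre sites at 12727666 to 12728872 (323.59), 15511402 to 15512409 (312.60) and 6100382 to 6101615 (305.04), and the left-arm site at 103938 to 105194 (319.54). The left-arm site ranked 3 on V in replicate 1 and 10 in replicate 2. The other leading peaks of the left arm were 4826468 to 4827552 (298.54) and 5777709 to 5778748 (293.25). They ranked 14 and 15 on V, and were found in both replicates.

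**Figure D5:**
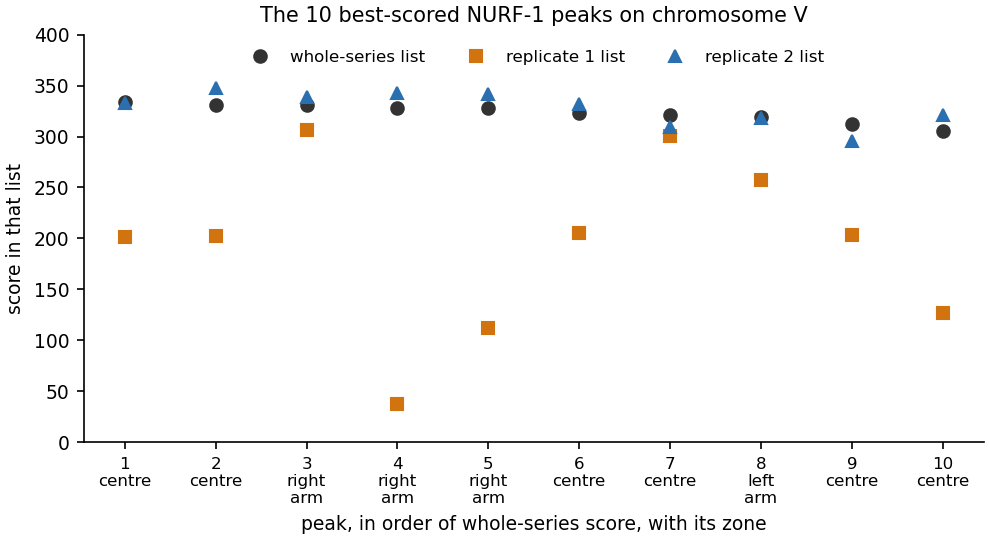
Scores of the 10 best-scored chromosome V peaks in the whole-series list and of their counterparts in each replicate list (y axis), in order of whole-series score with the zone of each peak under its rank (x axis). Levels of different lists may not be comparable; within replicate 1 the scores run from 37.53 to 306.55, and within replicate 2 from 295.3 to 348.06.

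The widest V peaks were not the best-scored. The widest spanned 7916857 to 7925050 in the centre, 8194 bp, and ranked 386 on V with a score of 74.50. Each replicate had a single peak there with edges within 13 bp of it, scoring 62.81 in replicate 1 and 54.56 in replicate 2. The next were 17119946 to 17126644 (6699 bp, score 128.35) and 17128149 to 17132148 (4000 bp, score 126.82) in the right arm. With the peaks at 17115463 to 17116149 and 17117812 to 17118947 they form a block of 16.7 kb, of which 75.04% was covered by peaks. This block follows the gap of 148 kb and holds 39.5% of all peak bases between 17 and 18 Mb. Replicate 1 had 12 peaks in it and replicate 2 had 8, and the best scored 123.64 in replicate 1 and 123.39 in replicate 2. Input values and repeats at these positions were not analysed here. In all, 64 V peaks were at least 1200 bp wide (3.47%), within the range of the other chromosomes, 2.21% on X to 4.18% on II. Of the 64, 58 were in both replicates (90.6%), against 31.2% of the other V peaks, but a wider peak meets an overlap of 1 bp more easily. The wide peaks also scored higher, with a median of 140.9 against 15.91 for the others. Their share is therefore not a separate result about width.

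Of the V peaks missing from 1 replicate list, the best-scored were in replicate 2. All peaks of the top score groups overlapped replicate 2, on V and on the other chromosomes, so none could be in replicate 1 alone. Whole-series scores also followed those of replicate 2 (Spearman's rho 0.97), so this order is not a separate result about V. The best-scored in replicate 2 alone was 9191429 to 9191806 in the centre, 378 bp wide, which scored 223.75 and ranked 59 on V. Next were 14136011 to 14136707 (169.88) and 15800995 to 15801306 (154.92), both in the centre. The best in replicate 1 alone scored far less. They were 10446711 to 10446936 in the centre (16.60), 17384323 to 17385281 in the right arm (15.40) and 1104623 to 1105240 in the left arm (13.66). In neither replicate list were 2434930 to 2435084 in the left arm (10.06), 8413648 to 8413832 in the centre (8.82) and 3053945 to 3054092 in the left arm (6.78). The last of these borders the gap of 176 kb.

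The first base of the chromosome lay in a peak in every list. This left-end peak spanned bases 1 to 285 in the whole-series list, scored 39.91 and ranked 621 on V. The last peak, whose end was taken as the length of V, spanned 20923884 to 20924149, scored 59.83 and ranked 482. At the left boundary of the centre, the last arm peak was 5849780 to 5850070 (score 7.51) and the first centre peak 5917589 to 5918036 (49.84), with 67518 bp between them. At the right boundary, the first arm peak was 16552634 to 16552887 (18.26) and the last centre peak 16547680 to 16548585 (16.69).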

How the data were processed

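NURF-1 ChIP and input DNA were sequenced in 2 libraries each. The submitters' processing notes name BWA as aligner and ce10 as genome build. Peaks were called with MACS on WormBase WS220 coordinates, per the file headers and source column. The authors deposited 1 peak list per ChIP replicate and 1 for the whole series, with a score per peak whose scale is not stated. MACS version, thresholds, use of input and the way replicates were combined are not given in the sources used.

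Whole-series peaks on V were marked when a replicate peak overlapped them by 1 bp or more, and placed in zones by midpoint. Shares carry 95% Wilson intervals. V was set against the other 5 chromosomes by exact permutation, which cannot go below p = 0.167. Peaks are not replicates, so no test was run over them. The members and lists were chosen with earlier results of these data known. The text names the 10 best-scored peaks, the 3 best of each zone and of each class found in 1 replicate or neither, the 3 widest, the end and boundary peaks, the 3 fullest windows and the 3 longest gaps. Overlap counting was tested on simulated data. Analyses used SciPy 1.17.1, NumPy 2.4.6 and pandas 2.3.3 under Python 3.11.15, with figures by matplotlib 3.10.9. A gene table on another build (WBcel235) was not used.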

Additional observations from a re-analysis of the deposited data

How the results depend on the processing

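Over 8 results, 34 alternatives were run, 6 of them chosen after seeing these lists. Of the 34, 20 stayed within the spread between replicates or the counting interval, or kept their direction where a permutation test was run. For densities and scores, leaving out 1 replicate meant using the deposited list of the other replicate. The same lists give the spread between replicates, so staying within it was partly fixed in advance for these alternatives. The 1 reversal was the ratio of right to left arm density, 0.81, which was 1.06 in the replicate 1 list and 0.77 in the replicate 2 list. The density of V, 88.2 per Mb, was 36.8 in the replicate 1 list and 87.5 in the replicate 2 list. It was 44.0 among whole-series peaks scoring at or above the median. Its ratio to the other chromosomes ran from 0.687 to 0.730. The ratio of arms to centre, 0.736, was 0.780 in the replicate 1 list and 0.717 in the replicate 2 list. It was 0.681 at or above the median score and 0.674 counted in bases. The difference in median score between arms and centre, -2.37, was -0.685 in the replicate 1 list and -2.68 in the replicate 2 list. It was -0.06 with 3 zones of equal length and -5.35 among peaks in both replicates. With at least 50% of the peak covered, 17.2% of V peaks were found in replicate 1 and 15.01% in both, and at or above the median score 62.5% were found in replicate 1, 100% in replicate 2 and 62.5% in both. Requiring 1 replicate in place of both gave 35.3 to 94.1%. The causes were not tested. No paired analysis was possible because the input libraries have no peak list here. The unknown read depth limits every value.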

Other observations

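A run of weak NURF-1 peaks in the centre of V stood out by where it was found, and was chosen after its values were seen. Between 10605879 and 10611654, 9 whole-series peaks followed each other with gaps of at most 1 kb, the longest such run on V. Their scores ran from 3.02 to 7.91. Replicate 1 held 8 of the 9 and replicate 2 held 0 (replicate 1 alone held 2.00% of all V peaks). In the next longest run, at 1149902 to 1156350 in the left arm, all 8 peaks overlapped replicate 2 and 1 of them overlapped replicate 1. The runs of 7 peaks at 6874762 to 6881296 and 13654388 to 13659011 in the centre each held 1 peak found in both replicates, with a highest score of 239.28 in the first and 176.12 in the second.

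Some V peaks of the replicates are not in the whole-series list. They number 66 of 769 in replicate 1 (8.58%) and 88 of 1830 in replicate 2 (4.81%). The whole-series list thus overlapped 91.4% of V peaks in replicate 1, against 94.0% of all nuclear peaks of that replicate. In replicate 2 these shares were 95.2% and 94.7%. None of the missing V peaks overlaps a peak of the other replicate. Their median score was 3.85 in replicate 1, against 11.1 for its other V peaks, and 3.85 in replicate 2, against 18.9. The best-scored were 17393636 to 17393916 in the right arm (9.27, replicate 1) and 11307832 to 11307977 in the centre (7.42, replicate 2).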
